A study of Homo sapiens with 8 samples.

Results

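The 57 genes described here encode mitotic kinases and cyclins, the kinetochore and centromere, the spindle assembly checkpoint, condensin and its partner topoisomerase, the spindle and cytokinesis machinery, and the transcription factors FOXM1 and MYBL2. They were taken by gene symbol from the count table, and all 57 were found among its 60230 genes. The rule uses no measured value, but the list was drawn up with earlier results of these data known. The cells were HepG2, a human liver cancer line, made to overexpress the drug-metabolizing enzyme CYP2C19 and kept in blasticidin in all groups. There were 4 groups with 2 RNA-sequencing libraries each. The controls received DMSO, the solvent, and the treated cells received 1 of 3 antioxidants that are added to plastics. Compound 4 ("metylcresol" in the labels) carries a methylene bridge between its phenol rings and a tert-butyl group on each ring. Compound 6 ("cyclohexil") has the same bridge with cyclohexyl in place of tert-butyl. Compound 5 ("tetrabut") has an ethylidene bridge and a pair of tert-butyl groups on each ring. Each compound was given at its own IC50, so the molar doses differed between compounds. The sample labels name the replicates day 1 and day 2, while the study's methods give the same exposure time for every group, and the day was read here as a replicate number. If the day were the length of exposure, the libraries of a group would not be replicates. No source used here says that the replicates came from separate cultures, so the p-values measure the spread between these libraries, which may be technical. The question was whether and how far the mitotic genes differed between each treatment and DMSO.

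In a dividing cell, CDK1 bound to a B-type cyclin drives entry into mitosis, and Polo-like and Aurora kinases act beside it. The kinetochore, built on centromeric chromatin, attaches chromosomes to spindle microtubules, while the spindle assembly checkpoint holds back separase and the anaphase-promoting complex until attachment is complete. Condensin and topoisomerase II shape the chromosomes, and the central spindle then directs cytokinesis. Most of these genes are transcribed from late S phase to mitosis, a timing that depends on the MuvB complex with B-MYB (the product of MYBL2) and FOXM1. In RNA from a whole culture, fewer dividing cells and less RNA per dividing cell cannot be told apart.

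The libraries held 9791659 to 17814595 counts, and all 57 members passed the filter on low counts, as did 13400 genes in all. Compound 5 replicate 2 was the deepest library. CYP2C19 was present in all 8 libraries, at 16.4 to 52.8 CPM, the unit of level used here, which is the count scaled to the size of the library. The liver markers ALB, AFP, APOA2, TTR, SERPINA1 and HNF4A were present in every library, but not at one level. AFP was at 8663 and 8999 CPM in DMSO and at 4598 to 6636 CPM in the 6 treated libraries, and ALB at 20660 and 19296 CPM in DMSO and at 14369 to 18920 CPM in the treated libraries, so that all treated libraries were below DMSO in both. SERPINA1 was below DMSO in both libraries of compounds 5 and 6, APOA2 was above it in those of compounds 4 and 6, HNF4A was above it in those of compounds 4 and 6 and below it in those of compound 5, and TTR was below it in those of compound 5. DCN, PTPRC, CD3E and CFTR, which mark fibroblasts, leukocytes and bile duct cells, were at 0 throughout. Among the other markers of such cells, COL1A1, COL3A1 and KRT7 did not exceed 0.102 CPM and PECAM1, VWF and CDH5 did not exceed 1.23 CPM, whereas PDGFRB (5.02 to 25.3 CPM), CD68 (20.0 to 39.3 CPM) and SOX9 (110 to 172 CPM) were present in all libraries. PDGFRB was at 9.12 and 5.02 CPM in DMSO, 23.2 and 25.3 with compound 4 and 14.6 and 14.3 with compound 6, and CD68 at 24.7 and 20.1 CPM in DMSO, 39.3 and 38.6 with compound 4 and 30.7 and 29.4 with compound 6. Both were thus higher in the libraries of compounds 4 and 6 than in DMSO, and in those of compound 5 they overlapped DMSO. The part of these markers in the results was not tested. Mitochondrially encoded genes took 4.69% to 7.77% of the counts.

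Many genes of late cell cycle timing carry a short element close to their start site, the cell cycle genes homology region (CHR), which MuvB complexes bind, and CCAAT boxes, which the factor NF-Y binds. The windows below were chosen among those that hold CHR letters, for members of several roles, and show where the letters lie. ECT2 is included as the member whose level moved least under compound 4. CDK1 and ECT2 have 2 start sites each, and the one with more of these letters in its window is shown. Each window holds the 120 bases before a RefSeq start site (GRCh38.p14), 5′ to 3′, and thus lies upstream of the transcript that starts there. Capitals mark the CHR letters TTTGAA, which read TTCAAA on the other strand, with the palindrome TTCGAA as a variant, and the box letters CCAAT, which read ATTGG on the other strand.
CDK1, chr10:60778358-60778477, plus strand: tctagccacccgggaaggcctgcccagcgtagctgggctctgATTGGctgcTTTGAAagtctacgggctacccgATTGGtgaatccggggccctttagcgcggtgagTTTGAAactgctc
CCNB2, chr15:59105026-59105145, plus strand: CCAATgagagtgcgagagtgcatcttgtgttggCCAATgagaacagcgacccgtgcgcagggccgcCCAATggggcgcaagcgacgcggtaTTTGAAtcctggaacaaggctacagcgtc
PLK1, chr16:23678769-23678888, plus strand: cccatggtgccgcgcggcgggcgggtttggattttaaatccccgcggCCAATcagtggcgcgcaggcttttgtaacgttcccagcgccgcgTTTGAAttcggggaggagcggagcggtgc
BUB1B, chr15:40160949-40161068, plus strand: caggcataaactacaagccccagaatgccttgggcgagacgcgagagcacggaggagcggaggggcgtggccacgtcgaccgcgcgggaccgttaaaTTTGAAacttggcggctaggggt
CDC20, chr1:43358861-43358980, plus strand: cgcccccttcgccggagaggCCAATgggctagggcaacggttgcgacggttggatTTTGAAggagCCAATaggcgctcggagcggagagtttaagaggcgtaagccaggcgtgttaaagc
ESPL1, chr12:53268179-53268298, plus strand: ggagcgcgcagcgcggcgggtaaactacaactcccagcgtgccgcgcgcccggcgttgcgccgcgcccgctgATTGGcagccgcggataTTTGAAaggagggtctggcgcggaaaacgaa
CDCA8, chr1:37692396-37692515, plus strand: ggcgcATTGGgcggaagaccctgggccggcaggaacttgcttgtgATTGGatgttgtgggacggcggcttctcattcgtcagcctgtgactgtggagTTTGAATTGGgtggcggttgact
NCAPG, chr4:17810859-17810978, plus strand: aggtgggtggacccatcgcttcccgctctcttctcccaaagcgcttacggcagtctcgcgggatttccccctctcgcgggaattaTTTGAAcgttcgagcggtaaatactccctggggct
ECT2, chr3:172750606-172750725, plus strand: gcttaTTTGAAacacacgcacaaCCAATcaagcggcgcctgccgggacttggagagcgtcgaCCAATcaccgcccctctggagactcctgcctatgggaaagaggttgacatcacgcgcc

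In these windows the CHR letters nearest to the start began 13 bases before it in CDK1, 23 in BUB1B and CDCA8, 29 in CCNB2 and PLK1, 31 in ESPL1, 35 in NCAPG, 65 in CDC20 and 115 in ECT2. In CDCA8 the CHR letters and an ATTGG share bases. RefSeq promoters were matched for 46 of the 57 members, with 57 start sites between them. Among the 250 bases before the start, 43.9% of the members' start sites held CHR letters, compared with 14.3% of all 35116 start sites and 26.1% of those of the 66 other mitotic genes that had one. A CCAAT box in either direction was present at 66.7% of the members' start sites and at 32.0% of all, and 2 or more such boxes at 42.1% and 9.53%. Both kinds of letters occurred together at 35.1% of the members' start sites and at 5.05% of all. Counted by gene, CHR letters were found in 15 of 29 members that fell under compound 4 (51.7%) and in 7 of 17 that did not pass the test (41.2%). Such matches describe the letters only. The entries of BIRC5, TPX2, BUB3, KNL1, CENPH, FOXM1, UBE2C, TTK, AURKA, RACGAP1 and CENPM were not used here.

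Under compound 4 the mitotic genes were lower almost throughout. The fitted level of 57 of 57 members lay below DMSO, with a median log2-fold change of −0.75 (a change of −40.6%) and a range from −1.24 for DLGAP5 to −0.05 for ECT2, where 48.6% of all tested genes were fitted lower. For 56 members both compound 4 libraries lay below both DMSO libraries, which held for 28.0% of all tested genes. In the edgeR quasi-likelihood test with Benjamini-Hochberg adjustment over the 13400 genes, 36 members (63.2%) fell and 0 rose, where 9.51% of all genes passed, 3.91% as lower and 5.6% as higher. Without adjustment 51 members were lower at a p under 0.05, as were 12.4% of all genes. The median of all tested genes was 0.01, and the scaling between libraries aims to hold it near 0. The number of calls depended on single libraries. It was lower in every fit that left out a DMSO, compound 4 or compound 6 library than in the fit of all libraries. Such a fit has 1 library in a group and takes its spread from the other groups, so medians are given here. The median of the members was −0.92 without DMSO replicate 1. It was −0.69 and −0.83 without compound 4 replicate 1 or replicate 2, and −0.76 and −0.75 without those of compound 6. No member kept its call without DMSO replicate 2. The median log2-fold change of the members without that library was −0.59. CENPF, DLGAP5 and TOP2A kept their calls in each of these fits except the one without DMSO replicate 2.

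Under compound 6 the same direction was seen with smaller values and 0 calls. All 57 fitted levels lay below DMSO (47.3% of all genes), with a median of −0.52 (−30.2%) and a range of −0.92 to −0.12, and for 52 members both libraries lay below both DMSO libraries (26.0% of all genes). In the edgeR test 0 members passed, against 0.575% of all genes (0.0821% as lower and 0.493% as higher). The lowest adjusted p of a member was 0.071, for BIRC5. Without adjustment 41 members were below a p of 0.05, against 7.72% of all genes that were lower by that measure. DESeq2 called 15 members (3.91% of all genes called). With the replicate number as a block, edgeR called TOP2A alone among the members (adjusted p = 0.0468), and 0.507% of all genes. A fit of the DMSO and compound 6 libraries alone called 30 members (7.87% of all genes). Fits that dropped replicate 1 or replicate 2 of compound 5 also called members, at medians of −0.53 and −0.52.

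Under compound 5 the members were split by replicate. The median log2-fold change was −0.40 (−24.1%), with a range from −1.12 for CENPI to 0.29 for ECT2, and 54 fitted levels lay below DMSO (49.6% of all genes). Only CENPI and KNL1 fell in the edgeR test (3.51% of members, against 8.30% of all genes called, 2.95% as lower and 5.35% as higher), and 0 rose. At an unadjusted p under 0.05, 20 members were lower, and 12.8% of all genes. With the replicate number as a block 10 members fell, the added ones being AURKA, CCNA2, CCNB1, CENPF, DLGAP5, ESPL1, TOP2A and TPX2 (10.7% of all genes called). Both compound 5 libraries lay below both DMSO libraries for 26 members and above both for ECT2, while 28.5% of all genes lay below and 31.0% above. In compound 5 replicate 1, 55 members were below both DMSO libraries. In compound 5 replicate 2, 26 were below both, 27 between them and 4 above both. The share of all genes in these positions was not computed for single libraries, so these counts only describe the members. Without compound 5 replicate 2 the median was −0.69, and more members passed the test than in the fit of all libraries. With replicate 1 removed instead, the median was −0.16 and no member passed. Removing either DMSO library (replicate 1 or replicate 2) also left no call, and removing compound 6 replicate 2 left that of CENPI alone. The 3 comparisons with DMSO share the DMSO libraries and are not independent of each other.

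**Figure D1:**
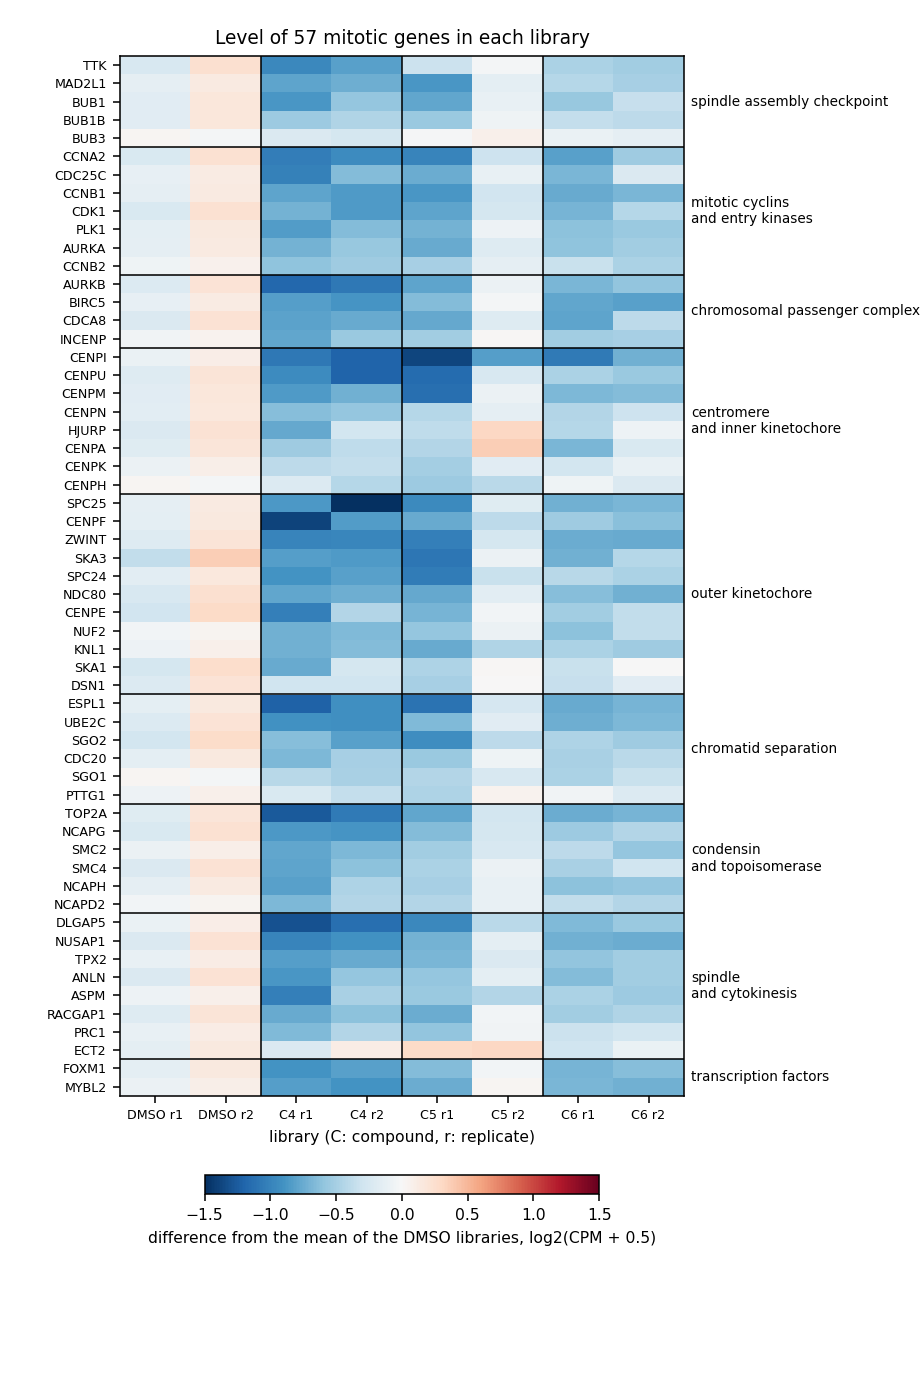
Difference of each member's level from the mean of the DMSO libraries, on the log2(CPM + 0.5) scale (color), in each of the 8 libraries (columns, C for compound and r for replicate), with members in rows by role. For 56 members both compound 4 columns are lower than both DMSO columns, which held for 28.0% of all tested genes. The compound 5 columns differ from each other more than those of any other group at the median.

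In DMSO and with compound 5 the members differed between replicates in a common direction. The median member differed from the DMSO mean by −0.15 and 0.15 in DMSO replicates 1 and 2 on the log2(CPM + 0.5) scale, by −0.80 and −0.66 in those of compound 4, by −0.69 and −0.14 in those of compound 5, and by −0.54 and −0.50 in those of compound 6. Compound 5 replicate 1 thus lay among the compound 4 libraries and compound 5 replicate 2 just above DMSO replicate 1. All 57 members were higher in compound 5 replicate 2 than in replicate 1, by a factor of 1.02 to 2.13 (median 1.46), where 50% of all tested genes were. In DMSO 54 members were higher in replicate 2 (median factor 1.23), where 48.2% of all tested genes were. For compounds 4 and 6 these numbers were 42 and 37, where 52% and 51% of all tested genes were higher. Summed over the members, the levels were 3990.1 and 4876 CPM in DMSO, 2487 and 2737 CPM with compound 4, 2818 and 3985 CPM with compound 5 and 2980.3 and 3097 CPM with compound 6. The depth of compound 5 replicate 2 (17814595 counts) is given beside this spread, and its part in it was not tested. With every library thinned to the smallest total, a step chosen after the data were seen, 34 members fell under compound 4, 4 under compound 5 and 0 under compound 6. Of all genes, 9.54%, 8.28% and 1.41% were called in that fit.

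**Figure D2:**
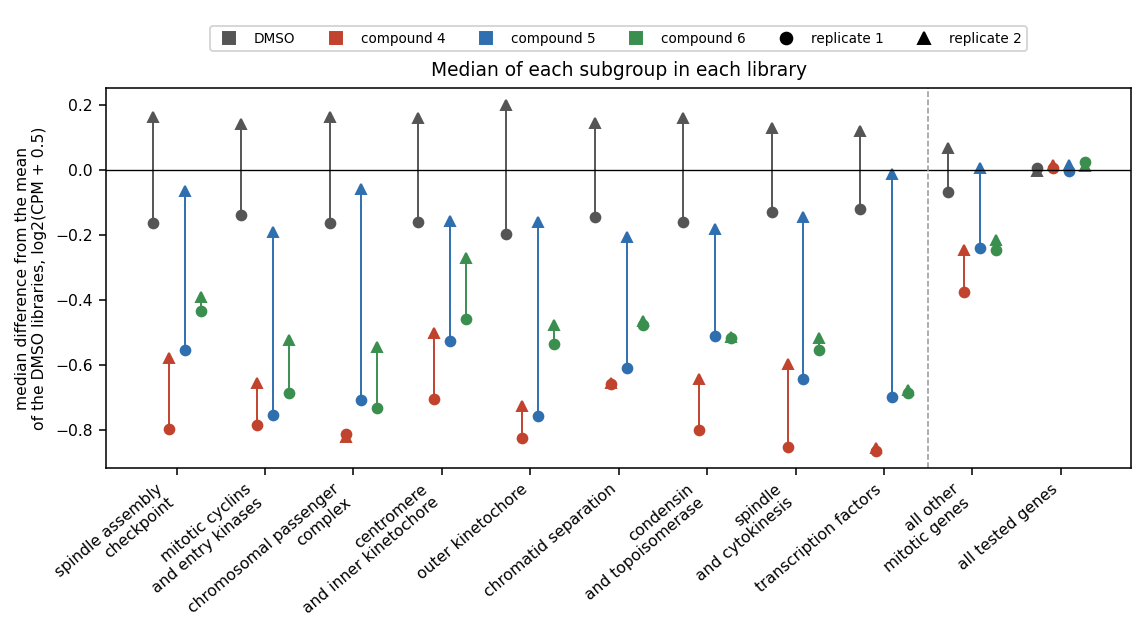
Median difference from the DMSO mean, log2(CPM + 0.5), of each subgroup of members, of the 75 other mitotic genes and of all tested genes (x axis), in each library (circles for replicate 1, triangles for replicate 2, colors for the groups). For all tested genes the libraries lie together near 0, which the scaling between libraries aims at. Each member subgroup has both compound 4 libraries below both DMSO libraries.

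The cyclins and kinases of mitotic entry fell together under compound 4, with 6 of 7 called and a median of −0.81, beside medians of −0.45 and −0.58 and 0 calls under compounds 5 and 6. CDC25C, the phosphatase that activates CDK1, missed the threshold (log2-fold change −0.85, adjusted p = 0.0606) and passed it with the replicate block (0.0114), with DESeq2 (0.0274) and in the fit of the compared groups only (0.0177). CDK1, the central mitotic kinase (chr10:60778331-60794852), stood at 46.3 and 63.6 CPM in DMSO replicates 1 and 2, 33 and 29.96 with compound 4, 31.3 and 45.2 with compound 5 and 33.3 and 40.4 with compound 6. All 6 treated libraries were below both DMSO libraries, and the change under compound 4 was −0.81 (SE 0.21, adjusted p = 0.0391). CCNB1, its cyclin B1 partner (chr5:69167010-69178245), was at 185 and 221 CPM in DMSO, 117 and 112 with compound 4, 110.2 and 166 with compound 5 and 119 and 126 with compound 6. Again no treated library reached DMSO. The log2-fold changes were −0.83 (adjusted p = 0.0207), −0.56 (0.0763, or 0.0459 with the replicate block) and −0.73 (0.0817) under compounds 4, 5 and 6. CCNA2, the cyclin of S and G2 phase, moved most in this group. It was at 76.9 and 106 CPM in DMSO, 44 and 46.6 with compound 4, 45.1 and 72.7 with compound 5 and 51.3 and 62.3 with compound 6, a change of −1.02 (SE 0.23, adjusted p = 0.0246) under compound 4 and of −0.63 under compound 5 (adjusted p = 0.101, or 0.0305 with the replicate block). CCNB2 (cyclin B2) moved least, from 70.9 and 78.2 CPM to 48.7 and 51.5 CPM with compound 4 (log2-fold change −0.57, adjusted p = 0.0334). With compound 5 it was at 52.5 and 67.9 CPM and with compound 6 at 58.9 and 53.2 CPM. PLK1, the Polo-like kinase, was at 137 and 169 CPM in DMSO, 84.9 and 96.6 with compound 4, 93.1 and 144 with compound 5 and 98.7 and 103 with compound 6. Its compound 5 libraries overlapped DMSO, and it fell under compound 4 by 0.75 on the log2 scale (adjusted p = 0.0377). With thinned counts the adjusted p of the edgeR test under compound 4 was 0.0511 for CDK1. CDK1, CCNB1, CCNA2, CCNB2 and PLK1 all lost their calls under compound 4 without DMSO replicate 2 or without either compound 4 library. Without DMSO replicate 1 only CCNA2 among them kept its call. Without either compound 6 library only CCNA2 and CCNB1 did.

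**Figure D3:**
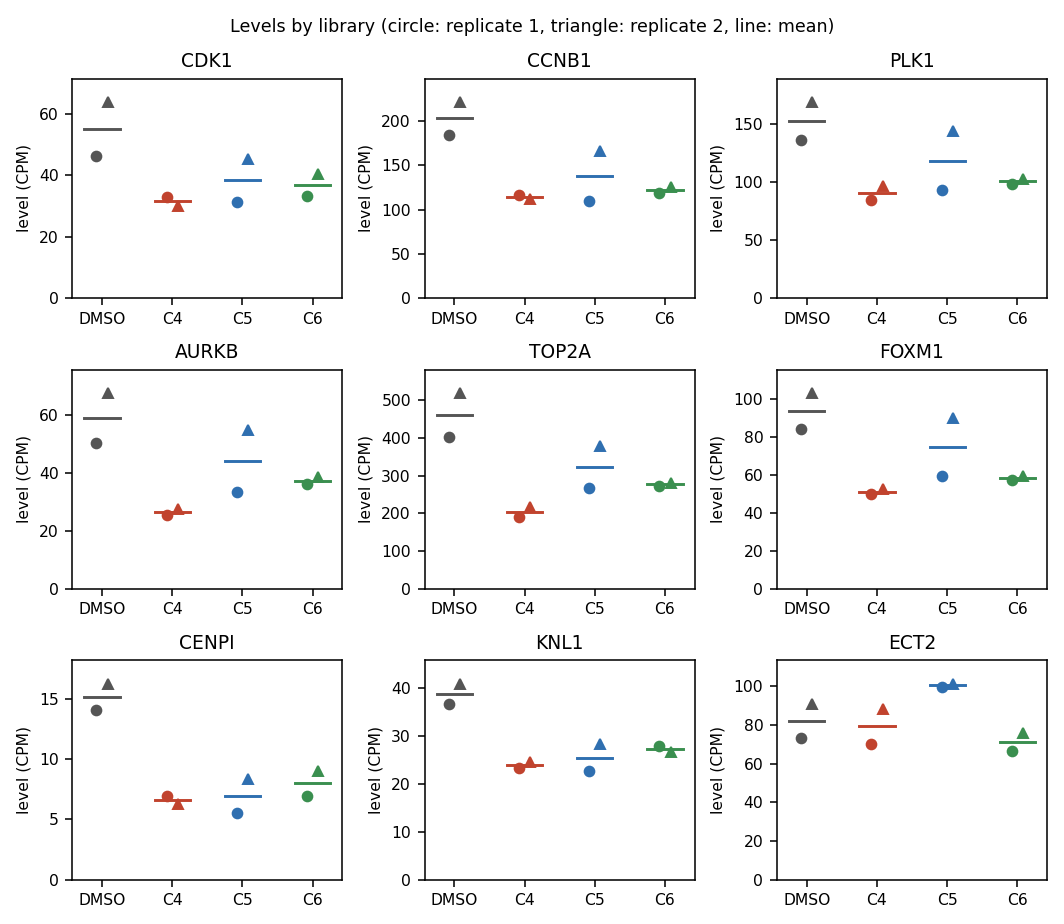
Level in CPM (y axis, from 0) of 9 members in each library of DMSO and compounds 4 to 6 (C4 to C6), with circles for replicate 1, triangles for replicate 2 and a line at the mean of the 2. In CDK1, CCNB1, TOP2A, CENPI and KNL1 all treated libraries lie below both DMSO libraries, and in ECT2 both compound 5 libraries lie above them.

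The chromosomal passenger complex, which corrects faulty attachments and then moves to the central spindle, fell as a whole under compound 4, with 4 of 4 subunits called and a median of −0.84. AURKB, its kinase (chr17:8204733-8210600), was at 50.5 and 67.7 CPM in DMSO, 25.6 and 27.6 with compound 4, 33.6 and 55 with compound 5 and 36.2 and 38.6 with compound 6. Its mean was 59.1 ± 12.2 CPM (SD, n = 2) in DMSO and 26.6 ± 1.41 CPM (SD, n = 2) with compound 4, a change of −1.15 (SE 0.22, adjusted p = 0.0158). Compound 5 replicate 2 lay between the DMSO libraries. INCENP, the scaffold, had 63.1 and 67.7 CPM in DMSO, 38 and 44.1 with compound 4, 45.5 and 66.2 with compound 5 and 45.4 and 46.2 with compound 6, and changed least in this complex (−0.67, adjusted p = 0.0381). BIRC5 (survivin) and CDCA8 (borealin), which bring the complex to the centromere, changed by −0.86 and −0.81 (adjusted p = 0.0199 and 0.0456). The medians under compounds 5 and 6 were −0.36 and −0.63, and no subunit passed the test. Among the subunits, BIRC5 had the lowest adjusted p under compound 6 (log2-fold change −0.81, 95% interval −1.21 to −0.40).

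Of the spindle assembly checkpoint, 2 of 5 members fell under compound 4, TTK and MAD2L1. The medians under compounds 4, 5 and 6 were −0.74, −0.30 and −0.47. TTK, the kinase that starts checkpoint signaling (chr6:80003887-80042527), was at 20.2 and 28.6 CPM in DMSO, 12 and 13.5 with compound 4, 19.2 and 23.6 with compound 5 and 17.2 and 16.6 with compound 6. It fell under compound 4 by 0.94 on the log2 scale (SE 0.19, adjusted p = 0.0176), while its compound 5 libraries overlapped those of DMSO (−0.19, 95% interval −0.59 to 0.21). MAD2L1, which binds CDC20 to block anaphase, changed by −0.78 (adjusted p = 0.0442). BUB1B, the BubR1 subunit of the checkpoint complex, had 71.6 and 90.1 CPM in DMSO, 54.8 and 58.7 with compound 4, 54.6 and 76.8 with compound 5 and 62.5 and 61.2 with compound 6. The compound 4 libraries were below DMSO, with a change of −0.51 that missed the threshold (adjusted p = 0.0862) and passed it with the replicate block (0.0466). BUB3, an adaptor that also has roles outside mitosis, moved least. Its values were 99.9 and 96.2 CPM in DMSO, 84 and 81.4 with compound 4, 96.6 and 103 with compound 5 and 91.5 and 89.3 with compound 6. The change under compound 4 was −0.25 (95% interval −0.47 to −0.03, adjusted p = 0.143), and under compound 5 it was 0.03 (95% interval −0.19 to 0.24). BUB1, a checkpoint kinase at the kinetochore, changed by −0.74 under compound 4 (adjusted p = 0.0625, or 0.0117 with the replicate block).

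At the centromere and inner kinetochore, 3 of 8 members fell under compound 4 (CENPI, CENPU and CENPN), and the subgroup had the smallest median of the 9, −0.58. Under compounds 5 and 6 its medians were −0.41 and −0.43. CENPI, a subunit of the constitutive network on centromeric chromatin (chrX:101098218-101163681), was the member with the largest change under compounds 5 and 6. It was at 14 and 16.2 CPM in DMSO, 6.94 and 6.31 with compound 4, 5.52 and 8.31 with compound 5 and 6.97 and 9.0 with compound 6, so that all treated libraries were below both controls. The log2-fold changes were −1.20 (adjusted p = 0.0155), −1.12 (0.0203) and −0.92 (0.0878) under compounds 4, 5 and 6. The CENPI call under compound 5 was lost without DMSO replicate 1 (adjusted p = 0.0798), DMSO replicate 2 (0.152) or compound 5 replicate 1 (0.118). CENPH belongs to the same network, yet its level was 21 and 20.2 CPM in DMSO, 17.7 and 15.2 with compound 4, 14 and 15.4 with compound 5 and 19.7 and 17.7 with compound 6. It was the only member with its largest fitted decrease under compound 5 (−0.48, adjusted p = 0.0654), beside −0.32 under compound 4 and −0.14 under compound 6. CENPA, the histone variant that marks centromeres (chr2:26764289-26801067), had 15.6 and 20.3 CPM in DMSO, 12.2 and 13.5 with compound 4, 13 and 23.1 with compound 5 and 10.9 and 15.1 with compound 6. Compound 5 replicate 2 was its highest library, and the change under compound 5 was 0.02 (95% interval −0.57 to 0.61). HJURP, the chaperone that loads CENPA, changed by −0.01 under compound 5 (95% interval −0.58 to 0.56) and by −0.52 under compound 4 (adjusted p = 0.227, or 0.0288 with the replicate block).

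In the outer kinetochore, which holds the microtubules, 6 of 11 members fell under compound 4. The medians under compounds 4, 5 and 6 were −0.80, −0.53 and −0.51. They were SPC25, SPC24 and NUF2 of the NDC80 complex, CENPF, ZWINT and KNL1. SPC25 (chr2:168834132-168913371) was at 16.2 and 19.6 CPM in DMSO, 9.57 and 6.01 with compound 4, 8.97 and 15.6 with compound 5 and 10.6 and 10.9 with compound 6. All treated libraries were below DMSO, and the change under compound 4 was −1.21 (SE 0.29, adjusted p = 0.0302). KNL1, the scaffold on which the checkpoint proteins assemble (chr15:40594020-40664342), had 36.7 and 41 CPM in DMSO, 23.3 and 24.6 with compound 4, 22.7 and 28.3 with compound 5 and 27.9 and 26.6 with compound 6. Its log2-fold changes were close to each other, −0.70 (adjusted p = 0.0176), −0.60 (0.0322) and −0.51 (0.111). The KNL1 call under compound 5 was lost without DMSO replicate 1 (adjusted p = 0.105), DMSO replicate 2 (0.209), compound 5 replicate 1 (0.167) or compound 6 replicate 2 (0.0533), and in the fit of the compared groups only (0.0624). DSN1, of the complex that links KNL1 and NDC80 to the centromere, moved least. It was at 39 and 52.4 CPM in DMSO, 36.8 and 36.8 with compound 4, 31.9 and 45.6 with compound 5 and 35.4 and 40.2 with compound 6 (change under compound 4 −0.32, 95% interval −0.74 to 0.11). NDC80 itself changed by −0.80 under compound 4 (adjusted p = 0.0556, or 0.0348 with the replicate block), and the microtubule-binding SKA1 and SKA3 and the motor CENPE by −0.53, −0.93 and −0.74 (adjusted p = 0.212, 0.111 and 0.112, or 0.0419, 0.0521 and 0.0189 with the block).

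Of the genes for chromatid separation, ESPL1 and UBE2C fell under compound 4 and 4 did not pass the test. The subgroup medians were −0.68, −0.38 and −0.49 under compounds 4, 5 and 6. ESPL1, the protease separase that cuts cohesin (chr12:53268299-53293643), was at 64.4 and 79.1 CPM in DMSO, 30.5 and 37.4 with compound 4, 32.9 and 59.6 with compound 5 and 42.2 and 43.8 with compound 6. Its change was −1.08 (SE 0.24, adjusted p = 0.026) under compound 4 and −0.62 under compound 5 (adjusted p = 0.123, or 0.0483 with the replicate block). PTTG1 (securin), the inhibitor of separase, moved little by comparison. It had 45.6 and 50.5 CPM in DMSO, 40.9 and 37.5 with compound 4, 34.7 and 49.7 with compound 5 and 46.3 and 41.4 with compound 6, a change of −0.30 under compound 4 (95% interval −0.67 to 0.08, adjusted p = 0.292). UBE2C, the ubiquitin-conjugating enzyme of the anaphase-promoting complex, changed by −0.96 (adjusted p = 0.0185) and its activator CDC20 by −0.59 (0.0563, or 0.0189 with the replicate block) under compound 4. The shugoshins SGO1 and SGO2, which shield centromeric cohesin, changed by −0.47 and −0.78 (adjusted p = 0.101 and 0.0553, the latter 0.0474 with the replicate block).

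All 6 condensin and topoisomerase genes fell under compound 4, with a median of −0.73, and the medians under compounds 5 and 6 were −0.34 and −0.51. TOP2A, which untangles sister chromatids (chr17:40388516-40417950), was at 402 and 518 CPM in DMSO, 190.4 and 218 with compound 4, 266 and 377 with compound 5 and 273 and 281 with compound 6. The compound 4 libraries were the lowest and the DMSO libraries the highest, without overlap. The mean went from 459.9 ± 82.4 CPM to 204 ± 19.5 CPM (SD, n = 2 each) under compound 4, a change of −1.17 (SE 0.18) with an adjusted p of 0.00634 that rose to 0.0807 without DMSO replicate 2. Under compounds 5 and 6 its changes were −0.52 and −0.73 (adjusted p = 0.0919 and 0.0798, or 0.0307 and 0.0468 with the replicate block). NCAPD2, a regulatory subunit of condensin I, moved least, from 214 and 224 CPM in DMSO to 137 and 161 with compound 4, 162 and 202 with compound 5 and 169 and 161 with compound 6. Its change under compound 4 was −0.55 (adjusted p = 0.0302). This call was lost without either DMSO library, either compound 4 library or compound 6 replicate 2. The remaining subunits NCAPG, SMC2, SMC4 and NCAPH changed by −0.90, −0.74, −0.72 and −0.64.

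Of the spindle and cytokinesis genes, 5 of 8 fell under compound 4 (DLGAP5, NUSAP1, TPX2, ANLN and ASPM), with a median of −0.74, beside −0.39 and −0.54 under compounds 5 and 6. DLGAP5, a protein of kinetochore fibers (chr14:55148112-55191678), had the largest change of all members under compound 4. It was at 39.1 and 45.3 CPM in DMSO, 16.7 and 19 with compound 4, 21.3 and 31.6 with compound 5 and 26.4 and 28.5 with compound 6. The changes were −1.24 (SE 0.19, adjusted p = 0.00656, and 0.081 without DMSO replicate 2), −0.67 (0.0518, or 0.0225 with the replicate block) and −0.62 (0.13) under compounds 4, 5 and 6. NUSAP1 and TPX2, which organize spindle microtubules, changed by −0.98 and −0.80 under compound 4 (adjusted p = 0.0176 and 0.0153). ECT2, the exchange factor that switches on RhoA at the division site (chr3:172750682-172821474), was the exception. Its values were 73.5 and 90.6 CPM in DMSO, 70.3 and 88.4 with compound 4, 99.6 and 101 with compound 5 and 66.4 and 75.9 with compound 6. Both compound 5 libraries were above both DMSO libraries, but the difference missed the threshold (log2-fold change 0.29, 95% interval −0.03 to 0.61, adjusted p = 0.216), and the values under compounds 4 and 6 were −0.05 (95% interval −0.38 to 0.28) and −0.21 (95% interval −0.54 to 0.12). RACGAP1 and PRC1, its partners at the central spindle, changed by −0.71 and −0.55 under compound 4 (adjusted p = 0.0732 and 0.075, or 0.0301 and 0.0285 with the replicate block).

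Both transcription factors fell under compound 4. FOXM1 (chr12:2857681-2877155) was at 84 and 103 CPM in DMSO, 49.6 and 52.7 with compound 4, 59.2 and 90.02 with compound 5 and 57.4 and 59.6 with compound 6. MYBL2 (chr20:43667019-43716496) was at 164 and 187 CPM in DMSO, 98.4 and 93.8 with compound 4, 104 and 178 with compound 5 and 109 and 106 with compound 6. In both genes the compound 4 and compound 6 libraries were below DMSO, and compound 5 replicate 2 lay between the DMSO libraries. The change under compound 4 was −0.87 for both (adjusted p = 0.0209 for FOXM1 and 0.0302 for MYBL2). Under compound 6 the changes were −0.68 and −0.71 (adjusted p = 0.111 and 0.124). Under compound 5 they were −0.32 and −0.31 (adjusted p = 0.267 and 0.334).

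**Figure D4:**
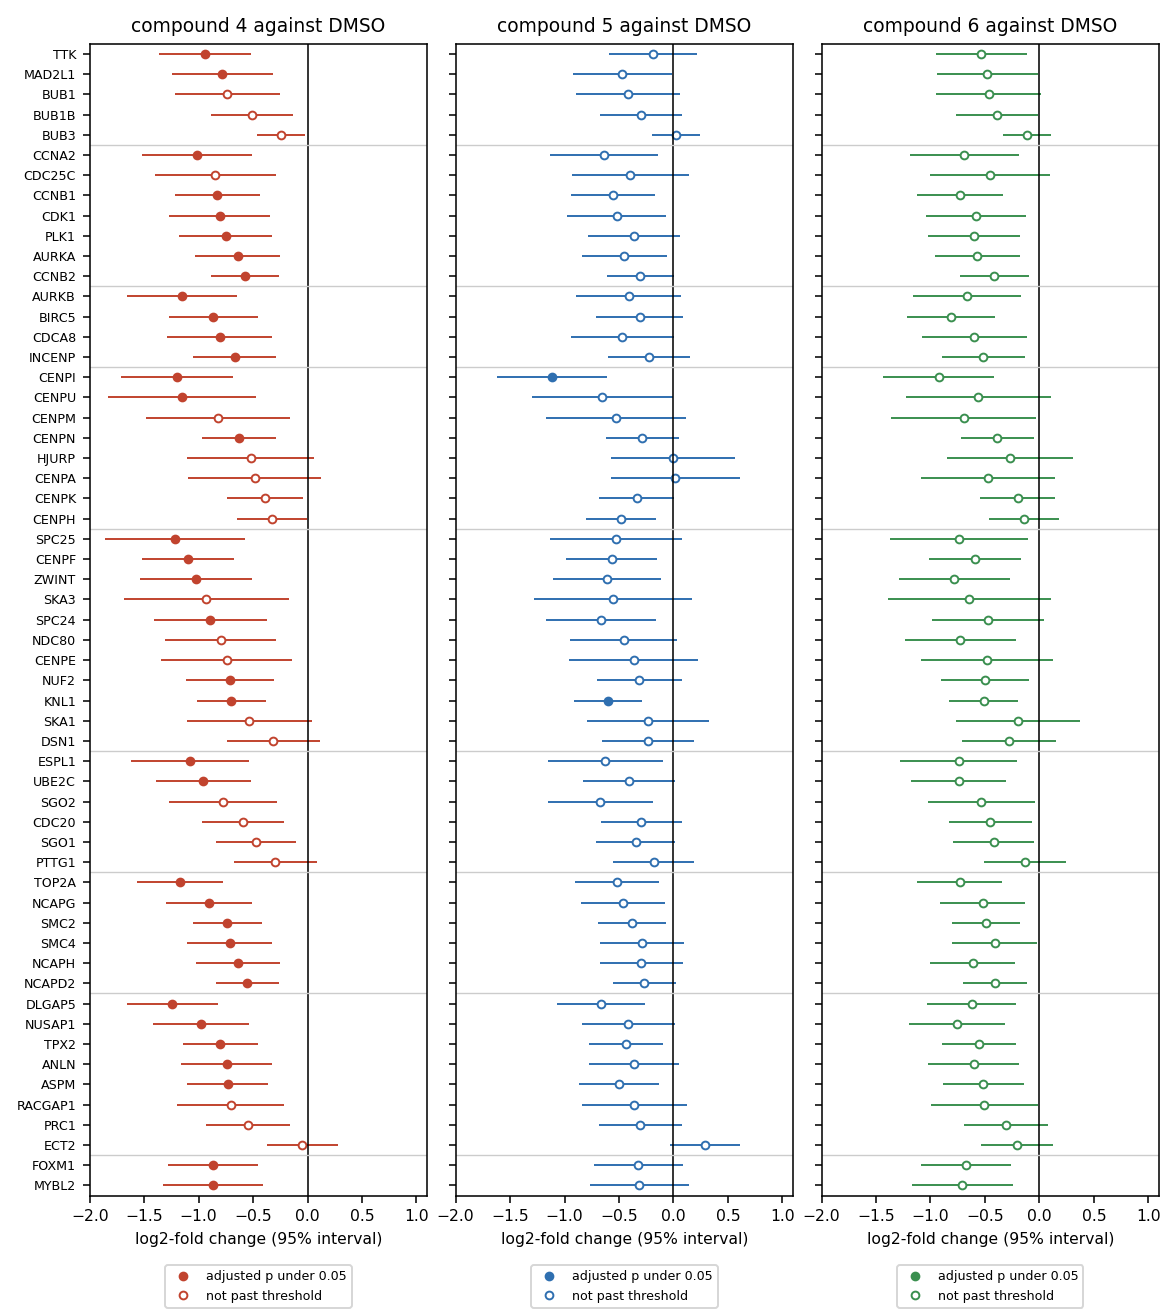
Log2-fold change against DMSO of each member (rows, by role) under compounds 4, 5 and 6, with 95% intervals from the edgeR fit that are not adjusted for the number of genes. Filled points mark an adjusted p under 0.05, which 36, 2 and 0 members reached, and the ECT2 point lies to the right of 0 under compound 5.

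Set side by side at their own IC50 values, the compounds followed the order 4, 6, 5 from the lowest level upwards in 45 of 57 members, and 55 had their largest fitted decrease under compound 4. The share of all genes with these orders was not computed, so these counts only describe the members. No member passed the edgeR test between compounds. Compound 4 lay below compound 5 in 56 members (50.9% of all genes), with a median of −0.35. The edgeR test called 0 members and 0.313% of all genes (0.127% as lower). At an unadjusted p under 0.05, 19 members and 7.63% of all genes were lower. DESeq2 called 1 member and 1.57% of all genes. The lowest adjusted p was 0.122, for TTK (difference −0.75, 95% interval −1.17 to −0.33). The median difference was −0.03 in the fit that dropped compound 5 replicate 2 and −0.60 in the fit that dropped replicate 1. Compounds 4 and 6, which differ in carrying tert-butyl or cyclohexyl groups, had a median difference of −0.22 with compound 4 the lower in 56 members (51.7% of all genes). Between them 0 of 13400 genes were called by edgeR (0%), 945 (7.05%) had an unadjusted p under 0.05, and DESeq2 called 59 genes, 0 of them members. By the unadjusted p, 3 members were lower, against 3.43% of all genes. DLGAP5 came nearest to the threshold (difference −0.62, 95% interval −1.04 to −0.19, adjusted p = 0.525). Compound 6 lay below compound 5 in 46 members (50.6% of all genes), with a median of −0.12. Neither edgeR nor DESeq2 called a member, edgeR called 1.03% of all genes (0.522% as lower), and 2 members and 8.16% of all genes were lower at an unadjusted p under 0.05. This median turned to 0.15 in the fit that lacked compound 5 replicate 2 and was −0.36 in the one that lacked replicate 1. ECT2 had the lowest adjusted p here, 0.123 (difference −0.50, 95% interval −0.82 to −0.17). A threshold that is missed does not show that the compounds act alike, and the molar doses differed.

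A list of 75 other mitotic genes had smaller median decreases than the members. Under compound 4 its median was −0.32, with 12 genes called lower (16.0%, against 3.91% of all genes) and 0 higher (5.6% of all genes). At an unadjusted p under 0.05, 33 were lower (12.4% of all genes) and 2 higher. Under compound 5 the median was −0.12, with 52 genes fitted lower and 23 higher. HMMR alone was called there (1.33%, against 2.95% of all genes called lower). By the unadjusted p, 8 were lower (12.8% of all genes) and 3 higher. Under compound 6 the median was −0.25 with 0 calls (0.575% of all genes). There 22 genes were lower (7.72% of all genes) and 1 higher at an unadjusted p under 0.05. The difference between this list and the members was not tested. MKI67, the antigen Ki-67 by which dividing cells are recognized, was at 204 and 225 CPM in DMSO, 73.7 and 105 with compound 4, 117 and 166 with compound 5 and 143 and 122 with compound 6. All treated libraries were below DMSO, and the change under compound 4 was −1.26 (SE 0.20, adjusted p = 0.00783). Under compounds 5 and 6 it was −0.59 and −0.69 (adjusted p = 0.0868 and 0.117). HMMR, a spindle protein that binds hyaluronan, was at 57.4 and 79.97 CPM in DMSO and 26.7 and 44.3 CPM with compound 5, and it changed by −0.95 under compound 5 (adjusted p = 0.0359) and −0.93 under compound 4 (0.0345). SPAG5, which links kinetochores to the spindle, changed by −0.997 under compound 4 (adjusted p = 0.0182) and ESCO2, which acetylates cohesin, by −0.96 (adjusted p = 0.0371).

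Some members share exon bases with another gene, and whether the counting used strand is not given in the sources used here, so their values are less certain. On the same strand, CENPA shares 138 bases with SLC35F6 (4738 counts over all libraries), PRC1 shares 3181 with ENSG00000284946 (732 counts) and NUSAP1 shares 1787 with ENSG00000285920 (91 counts). On the opposite strand, CDC25C shares 293 bases with FAM53C, CCNA2 254 with EXOSC9, NCAPD2 486 with MRPL51 and FOXM1 781 with ITFG2. Genes named as copies of members held few counts: NCAPD2P1 had 668 beside 17283 for NCAPD2, UBE2CP5 146 beside 1981 for UBE2C, NCAPGP1 26, AURKAP1 14 and UBE2CP2 6, and the other named copies 0. These copies were found by symbol only, and their sequences were not compared.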

How the data were processed

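RNA from 8 samples of CYP2C19-overexpressing HepG2 cells was sequenced by the authors from directional libraries. The column labels mark DMSO replicate 1 and compound 4 replicate 1, and no other library, as merged. They do not say what was merged. The deposited values are estimated counts per gene, made by the authors with Salmon 1.5.0 on GRCh38, and they were whole numbers in the table used. FastQC 0.12.0 and DESeq2 1.38.3 are also named in the submitters' notes. The members and the lists were chosen with earlier results of these data known.

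Counts of all 8 libraries were fitted together with edgeR 4.0.16 (R 4.3.3, TMM scaling, filterByExpr with a minimum count of 10, quasi-likelihood test, Benjamini-Hochberg over 13400 genes, threshold 0.05), and the fit was tested on simulated data. Depth was 9791659 to 17814595 counts. Levels are CPM after TMM scaling. They are given in the order of replicates 1 and 2 and are not compared between genes, since they are not scaled by length. Log2-fold changes and intervals come from the fit. An exact test of 2 against 2 libraries cannot reach the threshold and was not used. Replicates differed by more than sampling noise (mean chi-square per gene 8.20 to 19.1), so none was merged. Values per library were given for the members with the largest and the smallest change under compound 4 in each subgroup, for members past the threshold or fitted higher in another comparison, and for CDK1, CCNB1, PLK1, AURKB, BUB1B, TOP2A and FOXM1. Of the other mitotic genes, the 3 with the largest change per compound and MKI67 were eligible. CDC25C, BIRC5, MAD2L1 and the other members named with fold changes only belong to the list itself.

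The labels give same-numbered libraries a shared day, so the replicate number was taken to pair them and was fitted as a block beside the unblocked design. The replicate differences of DMSO correlated over all tested genes by 0.07, 0.23 and 0.12 with those of compounds 4, 5 and 6. Those of compounds 4 and 5 correlated by −0.16, compounds 4 and 6 by 0.30 and compounds 5 and 6 by −0.05. The alternatives were DESeq2 1.42.0, its size factors in edgeR, the block, fits of the compared groups only, no filter, at least 10 counts in every library, and leaving out each library in turn, where a lone library was assumed to vary like the other groups. Thinning to the smallest total and a block with compound 5 crossed were added after seeing the data. Gene positions are those of GENCODE 29 (GRCh38) and promoters those of RefSeq (GRCh38.p14). The list of shared exon bases is not complete, since an entry is not reported here.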

Additional observations from a re-analysis of the deposited data

How the results depend on the processing

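The reported fit called 36, 2 and 0 members under compounds 4, 5 and 6, and 9.51%, 8.3% and 0.575% of all genes. DESeq2 called 45, 7 and 15 members (10.8%, 10.4% and 3.91% of all genes). The replicate block called 47, 10 and 1 (12.7%, 10.7% and 0.507%). Fits of the compared groups only called 46, 1 and 30 (11.9%, 6.51% and 7.87%). With no filter on low counts there were 48, 20 and 38 calls (10.3%, 10.5% and 5.87%). At least 10 counts in every library gave 41, 3 and 0 (11.6%, 10.3% and 1.64%). DESeq2's size factors gave 36, 3 and 0 (9.44%, 8.22% and 0.351%). Thinning to the smallest total gave 34, 4 and 0 (9.54%, 8.28% and 1.41%). With the replicate numbers of compound 5 crossed, the block called 35, 4 and 1. Leaving out 1 library gave 0 to 46, 0 to 33 and 0 to 16. Between compounds 4 and 5 the 0 calls became 1 with DESeq2, 13 with no filter and 0 to 1 leaving out 1 library, and no filter gave 3 between compounds 4 and 6 and 3 between compounds 6 and 5, where leaving out 1 library gave 0 to 0. Over all genes the calls under compound 6 went from 77 to 518 with DESeq2, 1023 in the fit of its 2 groups and 1355 with no filter, those under compound 5 from 1112 to 2431 with no filter and 1284 with DESeq2, and those under compound 4 from 1275 to 2383 with no filter. The cause was not tested. Leaving out 1 library moved the median log2-fold change of the members to −0.92 to −0.59, −0.69 to −0.16 and −0.72 to −0.37 under compounds 4, 5 and 6, to −0.60 to −0.03 and −0.25 to −0.17 between compound 4 and compounds 5 and 6, and to −0.36 to 0.15 between compounds 6 and 5. With 1 replicate number only, without a test, the last median was 0.11 without replicate 2. The block left the medians at −0.75, −0.41, −0.51, −0.34, −0.22 and −0.10, and besides the calls given above it changed no call of a member described by library. Directions of single genes turned in a few fits. Under compound 4, ECT2 was at 0.11 without DMSO replicate 2 and 0.09 without compound 4 replicate 1. Under compound 5, CENPA was at −0.011 with the block and −0.005 with at least 10 counts, and leaving out 1 library moved CENPA to −0.47 to 0.35, TTK to −0.42 to 0.090, BUB3 to −0.018 to 0.061, INCENP to −0.52 to 0.0064, PTTG1 to −0.46 to 0.037 and MYBL2 to −0.75 to 0.011. Of 1200 values for named members under alternatives, 1016 kept direction and side of the threshold, 100 passed it anew and 73 lost it. Under compound 4, thinning to the smallest depth lost the calls of CDK1, NCAPH and NUF2 and added that of NDC80. Under compound 5 it added those of CENPH and SPC24.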

Other observations

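The calls among the other mitotic genes under compound 4 were spread over 8 of their lists, where 3.91% of all genes were called lower. Of the spindle and cytokinesis genes outside the members, 4 of 8 fell (CKAP2, TACC3, HMMR and SPAG5), and of the mitotic entry regulators 2 of 8, the kinases PKMYT1 and MASTL. The lists of checkpoint and RZZ genes (ZW10 of 7), anaphase-promoting complex genes (FBXO5 of 14), cohesin genes (ESCO2 of 11), condensin II genes (NCAPG2 of 3) and MuvB, DREAM and B-MYB complex genes (RBL1 of 9) had 1 call each, and MKI67 was called. Of the 14 other kinetochore genes, 0 passed the edgeR test, although 14 were fitted lower (median −0.46), as were 48.6% of all genes. At an unadjusted p under 0.05, 6 of them and 12.4% of all genes were lower. The changes of the called genes ranged from −0.50 for NCAPG2 to −1.26 for MKI67.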
